A study of Mus musculus with 8 samples.

Results

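The genes described are 10 regulators of the hair growth phase, chosen by name from the 22740 genes counted in skin. 5 encode secreted proteins (Shh, Wnt10b, Fgf5, Bmp4 and Sostdc1) and 5 encode transcription factors (Lef1, Msx2, Hoxc13, Foxn1 and Dlx3). Skin of 8 female BALB/c mice on a low-fibre diet was sequenced, 2 mice in each of 4 groups and 1 library per mouse. Baseline CTL mice drank water and met no allergen, and baseline butyrate mice drank 400 mM sodium butyrate. Lesional CTL mice drank water and received house dust mite extract (HDM), an allergen that causes atopic dermatitis-like skin inflammation, on shaved dorsal skin under an occlusive patch, as 4 exposures of 15 µg over 2 weeks. Lesional butyrate mice received the same exposures and drank 400 mM sodium butyrate from 2 weeks before the first and throughout. All were labelled as 6 to 8 weeks old. Baseline skin was taken at the end of the butyrate treatment, and the labels of baseline and lesional mice begin with different numbers, so that HDM, shaving, the patch, the day of collection and the set of mice cannot be told apart in any comparison of lesional with baseline skin.

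Hair follicles pass through cycles of growth (anagen), regression and rest. In anagen, WNT ligands act through beta-catenin and LEF1 in the epithelium, Sonic hedgehog drives the downgrowth of the follicle, and a cascade of transcription factors switches on the keratins of the hair shaft and its sheath. BMP signals hold follicle stem cells at rest and later act in the differentiation of the shaft, and FGF5 brings the growth phase to its end. Levels are given as CPM, the read count of a gene divided by the scaled size of its library. Keratinocyte markers summed to between 8543 and 20587 CPM, so that all 8 libraries carried the epidermis that their label of skin implies. Whole skin was sequenced, so that fewer cells of a type and less RNA per cell cannot be told apart. The total counts per library were between 18004136 and 21085544, and the shallowest scaled library put the floor of 3 counts at 0.169 CPM.

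Promoter sequences were at hand for 6 of the 10 genes, as windows from 250 bases before to 50 after a RefSeq start on GRCm38.p6. 4 windows with a match to the cores of LEF/TCF (CTTTGA or CTTTGT) or homeodomain factors (TAATTA) are printed 5′ to 3′ along the gene with the matches in capitals, and that of Bmp4 is printed because Bmp4 carried the clearest difference between groups.
Fgf5, chr5:98253934-98254233 (+): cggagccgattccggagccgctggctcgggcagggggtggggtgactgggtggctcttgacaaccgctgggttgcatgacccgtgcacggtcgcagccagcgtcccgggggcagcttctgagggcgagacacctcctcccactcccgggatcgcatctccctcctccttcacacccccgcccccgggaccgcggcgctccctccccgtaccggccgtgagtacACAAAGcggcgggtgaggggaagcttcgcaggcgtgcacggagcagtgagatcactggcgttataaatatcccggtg
Foxn1, chr11:78386559-78386858 (-): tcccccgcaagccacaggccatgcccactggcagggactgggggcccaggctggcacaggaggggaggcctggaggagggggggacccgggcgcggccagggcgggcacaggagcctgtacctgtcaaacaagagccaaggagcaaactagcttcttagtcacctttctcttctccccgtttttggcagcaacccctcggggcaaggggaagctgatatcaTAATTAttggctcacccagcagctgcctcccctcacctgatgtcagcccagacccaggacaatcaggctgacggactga
Msx2, chr13:53472731-53473030 (-): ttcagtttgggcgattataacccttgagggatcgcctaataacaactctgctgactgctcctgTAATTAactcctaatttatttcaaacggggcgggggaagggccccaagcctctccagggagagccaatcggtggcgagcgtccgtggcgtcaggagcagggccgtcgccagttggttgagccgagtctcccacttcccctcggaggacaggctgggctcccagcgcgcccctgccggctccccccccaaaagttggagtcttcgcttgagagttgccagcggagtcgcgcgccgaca
Lef1, chr3:131156044-131156343 (+): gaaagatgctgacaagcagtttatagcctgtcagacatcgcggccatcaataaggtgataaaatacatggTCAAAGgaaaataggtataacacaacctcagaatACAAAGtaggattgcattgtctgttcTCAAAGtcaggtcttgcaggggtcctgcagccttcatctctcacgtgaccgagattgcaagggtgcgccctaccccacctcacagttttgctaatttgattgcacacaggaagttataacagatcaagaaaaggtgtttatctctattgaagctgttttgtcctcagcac
Bmp4, chr14:46390620-46390919 (-): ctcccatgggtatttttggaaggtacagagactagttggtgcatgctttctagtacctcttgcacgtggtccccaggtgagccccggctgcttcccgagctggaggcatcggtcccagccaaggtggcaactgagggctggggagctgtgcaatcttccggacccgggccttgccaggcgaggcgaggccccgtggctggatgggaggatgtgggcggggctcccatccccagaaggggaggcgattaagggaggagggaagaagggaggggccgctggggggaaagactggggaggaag
The Fgf5 window holds CTTTGT on the opposite strand, beginning 27 bases before the start. In Foxn1 and Msx2, TAATTA begins 29 and 187 bases before it. The Lef1 window belongs to a start inside the gene and holds CTTTGA on the opposite strand at 180 and 120 bases before the start and CTTTGT at 146. The 3 other Lef1 windows, those of Bmp4 and Wnt10b and all windows of these genes for the GLI motif GACCACCCA held no match. Both strands were searched. Of all 32851 windows of 300 bases, 16% hold CTTTGA, 18.7% CTTTGT, 5.29% TAATTA and 0.253% GACCACCCA, so that a match is a description and not a site.

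One library stood apart from the other 7 and is named before any result. Baseline butyrate replicate 3 was more than 2-fold above every other library in 712 of 18445 genes with a count (3.86%) and more than 2-fold below every other in 515. In the other libraries 0 to 18 genes were above and 0 to 19 below all others. Of the 10 hair growth phase genes, 8 were more than 2-fold above every other library in this mouse, and the 2 that were not were Bmp4 and Sostdc1. Each result that uses this library is given with and without it. Without it baseline butyrate skin is 1 mouse, which is then assumed to vary like the other groups. The common biological coefficient of variation was 0.276 with all 8 libraries and 0.142 without this one.

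Shh (ENSMUSG00000002633) encodes Sonic hedgehog, the ligand that follicle matrix cells release in anagen, and lies on chromosome 5 of GRCm38 from 28456815 to 28467256. Its level was 0.111 and 0.166 CPM in the baseline CTL mice and 0.0562 and 12.0 CPM in baseline butyrate replicates 1 and 3. Lesional CTL skin had 0.106 and 0.0460 CPM, and lesional butyrate skin 0 and 0.139 CPM. These are 252 reads in 1 mouse and 12 reads in the other 7 together, with 0 to 3 in each. Against the floor of 3 counts in a library, baseline butyrate replicate 3 was at least 71.0-fold higher, and in the other 7 libraries differences in Shh were not detectable at this depth. Shh was therefore not among the tested genes, and 446 of its exonic bases overlap an antisense gene, whose reads are separable only if the library preparation marked strand.

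Fgf5 (ENSMUSG00000029337), on chromosome 5 from 98254184 to 98277030, showed the same distance between mice. Baseline CTL mice had 0.942 and 0.664 CPM, baseline butyrate mice 0.731 and 64.5 CPM, lesional CTL mice 0.426 and 0.506 CPM and lesional butyrate mice 0.952 and 1.11 CPM. Wnt10b (ENSMUSG00000022996), a ligand of the canonical WNT pathway on chromosome 15 from 98770712 to 98778150, was at 4.55 and 4.48 CPM in baseline CTL and 5.00 and 17.6 CPM in baseline butyrate skin. In lesional skin it was at 1.60 and 1.61 CPM in CTL and 1.90 and 3.02 CPM in butyrate-treated mice. All 4 lesional mice were below all 4 baseline mice for Wnt10b, and baseline butyrate replicate 3 was the highest for both genes.

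The other secreted proteins had no high level in that library. Bmp4 (ENSMUSG00000021835), a BMP ligand on chromosome 14 from 46383520 to 46390669, was at 39.9 and 42.4 CPM in baseline CTL and 36.9 and 42.1 CPM in baseline butyrate skin, against 11.4 and 11.9 CPM in lesional CTL and 14.8 and 16.5 CPM in lesional butyrate skin. The 2 conditions did not overlap, and within lesional skin the butyrate-treated mice had the higher values. Another gene shares 89 exonic bases with Bmp4. Sostdc1 (ENSMUSG00000036169), a secreted antagonist of BMP and WNT signalling on chromosome 12 from 36314139 to 36318452, was at 80.9 and 62.1 CPM in baseline CTL and 58.3 and 54.9 CPM in baseline butyrate skin. It was at 42.3 and 53.7 CPM in lesional CTL and 61.8 and 77.8 CPM in lesional butyrate skin, so that butyrate-treated mice were the lower ones in baseline and the higher ones in lesional skin.

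All 5 transcription factors were highest in baseline butyrate replicate 3. Lef1 (ENSMUSG00000027985), the nuclear partner of beta-catenin on chromosome 3 from 131110471 to 131224356, was at 6.76 and 7.20 CPM in baseline CTL, 5.06 and 81.7 CPM in baseline butyrate, 3.14 and 3.41 CPM in lesional CTL and 3.05 and 3.94 CPM in lesional butyrate skin. An antisense gene shares 1208 exonic bases with Lef1. Msx2 (ENSMUSG00000021469), a homeobox gene of the hair matrix on chromosome 13 from 53466884 to 53473074, was at 2.55 and 2.33, 2.02 and 124, 1.65 and 1.70, and 2.90 and 3.94 CPM in the same order of groups. For Lef1, all lesional mice lay below all baseline mice, while for Msx2 the lesional butyrate mice lay above the baseline CTL mice.

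Hoxc13 (ENSMUSG00000001655), a homeobox gene that activates hair keratin genes, lies on chromosome 15 from 102921103 to 102928814. It was at 12.2 and 7.36 CPM in baseline CTL, 9.45 and 243 CPM in baseline butyrate, 7.08 and 5.85 CPM in lesional CTL and 14.9 and 13.7 CPM in lesional butyrate skin. Foxn1 (ENSMUSG00000002057), the gene mutated in nude mice, on chromosome 11 from 78357577 to 78386558, was at 13.7 and 10.5 CPM in baseline CTL, 12.2 and 104 CPM in baseline butyrate, 14.5 and 12.8 CPM in lesional CTL and 16.9 and 16.2 CPM in lesional butyrate skin. Dlx3 (ENSMUSG00000001510), a homeobox gene of hair and epidermal differentiation on chromosome 11 from 95120119 to 95125296, was at 20.8 and 19.6 CPM in baseline CTL, 19.8 and 377 CPM in baseline butyrate, 11.1 and 14.8 CPM in lesional CTL and 29.5 and 21.8 CPM in lesional butyrate skin. In each of these 3 genes the values of lesional butyrate skin lay above those of lesional CTL skin, and in Foxn1 the CTL mice of baseline and lesional skin overlapped.

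**Figure D1:**
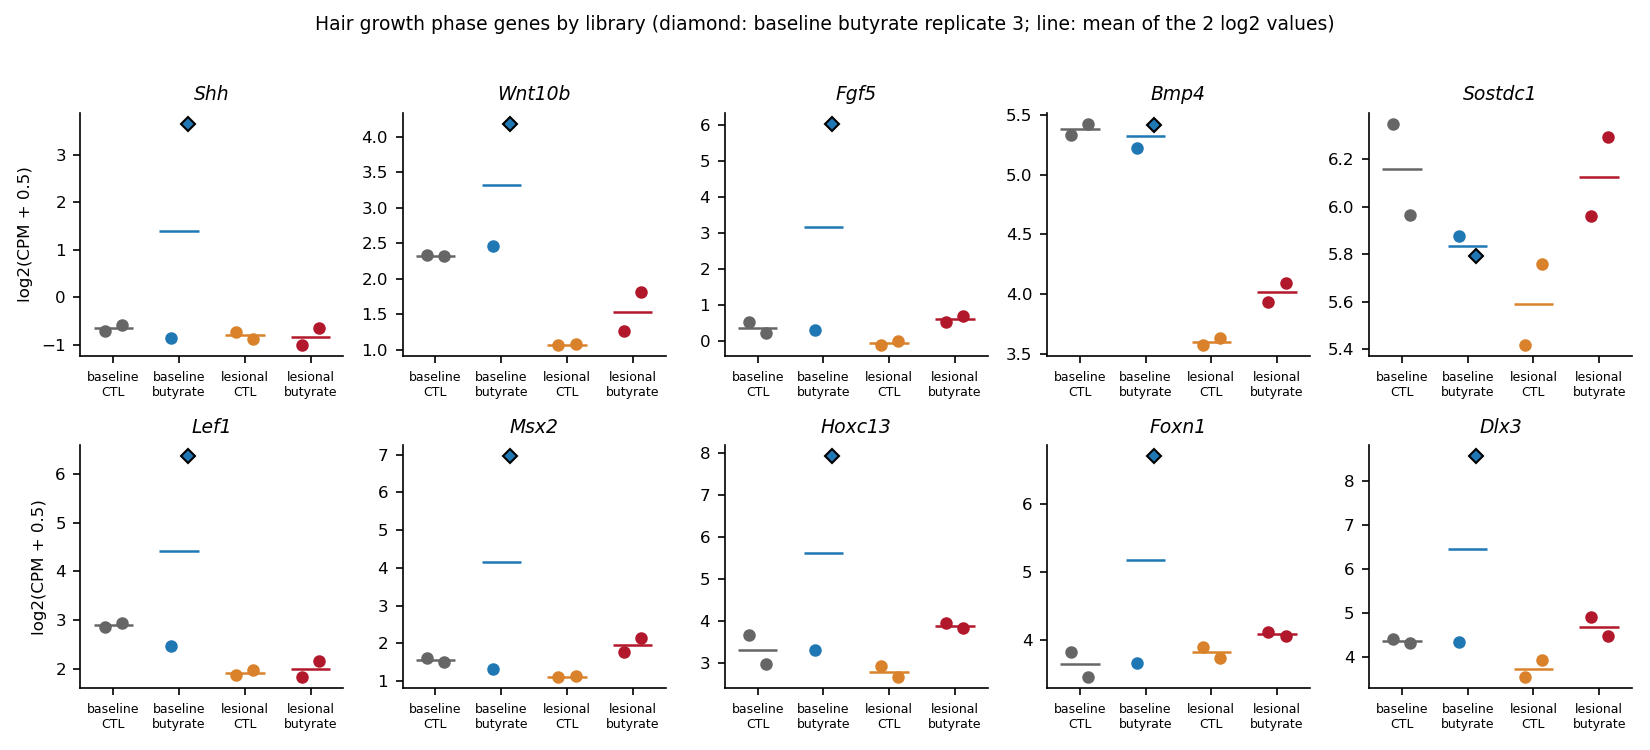
Level of each of the 10 genes in each of the 8 libraries as log2(CPM + 0.5), with a scale of its own in each panel; a point is a mouse, a line the mean of the 2 log2 values of a group, and the diamond baseline butyrate replicate 3. The diamond stands above all other points in 8 panels, with Msx2 at 124 CPM against 1.65 to 3.94 CPM, and lies among the baseline points for Bmp4 and below them for Sostdc1.

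The 2 baseline butyrate mice differed far more in these genes than the mice of any other group did. The median fold between the 2 mice over the 10 genes, computed on CPM + 0.5, was 16.6 in baseline butyrate skin, against 1.08 in baseline CTL, 1.10 in lesional CTL and 1.25 in lesional butyrate skin. Over all tested genes the corresponding medians were 1.42, 1.10, 1.08 and 1.16. The widest of the 10 on this scale were Fgf5 with 52.8-fold, Msx2 with 49.1-fold and Hoxc13 with 24.4-fold, and the narrowest were Bmp4 with 1.14-fold and Sostdc1 with 1.06-fold. Shh, at 12.0 against 0.0562 CPM, was at 22.4-fold here because the added 0.5 exceeds its lower value, so that its rank depends on that setting. Outside baseline butyrate skin the widest was Hoxc13 between the baseline CTL mice, at 1.61-fold. These values are a description of single mice, with no test.

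**Figure D2:**
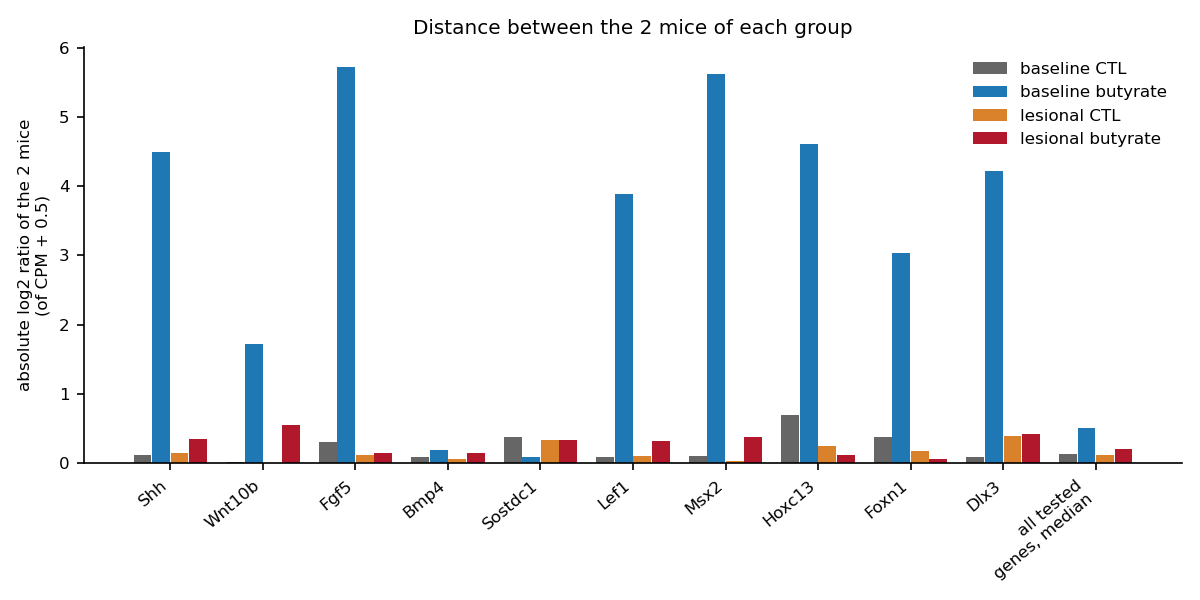
Absolute log2 ratio of CPM + 0.5 between the 2 mice of each group, for each of the 10 genes and as the median of all tested genes. The baseline butyrate bars (blue) of 8 genes lie far above those of every other group, up to 52.8-fold for Fgf5. That of Bmp4 is slightly above the other groups and that of Sostdc1 is below them.

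Per kilobase of exon, the order of the levels differed between libraries. In baseline CTL skin Sostdc1 was highest at 40.1 CPM per kb, followed by Bmp4 at 18.3, Dlx3 at 7.76, Hoxc13 at 3.97, Foxn1 at 3.77, Wnt10b at 1.33, Lef1 at 0.794, Msx2 at 0.743, Fgf5 at 0.321 and Shh at 0.0486 CPM per kb. Hoxc13 and Foxn1 overlapped between the mice, as did Lef1 and Msx2. In baseline butyrate replicate 3 the order was led by Dlx3 at 145, Hoxc13 at 98.6, Msx2 at 37.7 and Foxn1 at 32.3 CPM per kb, with Sostdc1 next at 30.8 and Shh last at 4.21 CPM per kb. In lesional CTL skin Bmp4, at 5.18 CPM per kb, overlapped with Dlx3 at 4.97, and in lesional butyrate skin Dlx3 at 9.83 lay above Bmp4 at 6.97 CPM per kb.

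The products of the hair shaft were read beside these regulators in baseline butyrate replicate 3. The 14 listed hair shaft genes summed to 5305 CPM there and to between 5.54 and 11.9 CPM in the other libraries, and the 9 genes of the inner root sheath to 18734 CPM against 7.70 to 16.1 CPM. In both lists every listed gene was more than 2-fold above all other libraries, and 6 and 4 of them had 0 counts in at least 1 library. The shaft keratin Krt35 was at 532 CPM against 0 to 0.166 CPM, and the sheath keratins Krt25 and Krt71 were at 3019 and 3872 CPM against at most 1.06 and 1.61 CPM. Melanocyte markers, of which none was at 0 in any library, summed to 850 CPM against 78.6 to 115 CPM. Of the 9, 6 were above all other libraries by 2-fold. Krt85 was not analysed here.

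Genes of the pathways upstream were read in the same library. Of all genes with a count, 3.86% were more than 2-fold above every other library there. Ptch1, the hedgehog receptor and itself a target, was at 59.3 CPM against 10.4 to 18.7 CPM in the other 7 libraries, and the effector Gli1 at 77.9 against 9.16 to 22.9 CPM. In all, 6 of 13 hedgehog genes were more than 2-fold above all others, Gli2, Gli3 and Hhip among them. Of 32 other WNT genes 8 were, among them the receptors Fzd10, Lgr4 and Lgr5 and the ligands Wnt5a and Wnt11. Axin2, a general target of beta-catenin, was not, at 44.6 CPM within a range of 32.5 to 59.8 CPM. Of 21 other BMP genes 4 were above (Bmp8a, Smad6, Smad7 and Bambi) and Grem1 was below. Of 15 other FGF genes none was more than 2-fold above or below. Of 22 other follicle transcription factors 8 were above, Msx1, Dlx1, Dlx2 and Sox9 among them, and Nfatc1 was below.

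Markers of other cells moved with this library too. Cell cycle genes summed to 1114 CPM there against 438 to 821 CPM, with 0 of 14 past 2-fold. Leukocyte markers summed to 219 CPM against 639 to 1306 CPM, with 6 of 7 more than 2-fold below all others. Keratinocyte markers summed to 8543 against 13317 to 20587 CPM, those of skeletal muscle to 9951 against 13197 to 46744 CPM and those of sebaceous glands to 3911 against 5441 to 8020 CPM. Sums within the range of the other 7 libraries, lesional ones included, were those of fibroblasts (3734 CPM), adipocytes (1514 CPM), dermal papilla (132 CPM) and bulge (1199 CPM). Against the other baseline libraries alone, fibroblast markers (6369 to 8448 CPM there) and bulge markers (2298 to 2475 CPM) were lower in this library. Dermal papilla markers (75.6 to 98.0 CPM) were higher, and adipocyte markers (1292 to 1959 CPM) were within the range. None of the markers in these lists was at 0 in any library. Their part in the levels of the hair growth phase genes was not tested.

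**Figure D3:**
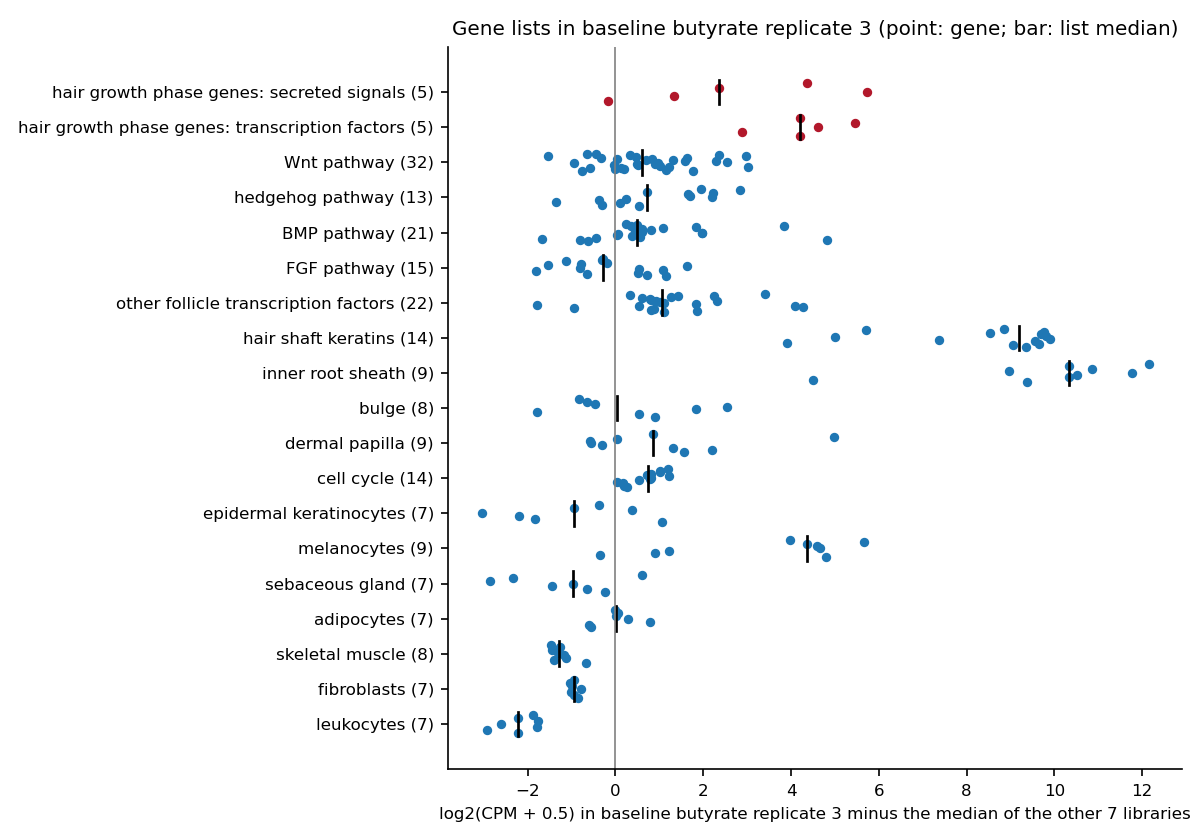
For each gene of each list, log2(CPM + 0.5) in baseline butyrate replicate 3 minus the median of the other 7 libraries, with the number of listed genes in parentheses; points are genes (red, the 10 hair growth phase genes) and bars list medians. The hair shaft and inner root sheath lists, at 5305 and 18734 CPM in sum, have the medians farthest to the right, and the leukocyte list, at 219 CPM in sum, has the median farthest to the left.

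Whether oral butyrate changed these genes in unexposed skin could not be separated from the 1 mouse. By edgeR's quasi-likelihood test with all 8 libraries the log2 fold change of baseline butyrate against baseline CTL skin was 5.33 for Fgf5 (SE 1.77), 4.68 for Msx2 (SE 1.60), 3.69 for Hoxc13 (SE 1.29), 3.30 for Dlx3 (SE 1.17), 2.64 for Lef1 (SE 1.09), 2.26 for Foxn1 (SE 0.87) and 1.32 for Wnt10b (SE 0.58). All had an FDR of 0.714, and 0 of the 9 tested genes were called, beside 0% of all genes, where called means an FDR below 0.1 over all tested genes and a fold above 2. Unadjusted, 6 of the 9 had a p below 0.05 by edgeR, beside 529 of all 15163 tested genes. limma-voom called 0 of them and DESeq2 called Fgf5, Msx2 and Hoxc13 as higher, where it called 0.383% of all genes. With baseline butyrate replicate 3 left out every value lay between -0.46 (Lef1) and 0.15 (Wnt10b), 0 were called by edgeR, limma-voom or DESeq2, and 0 had an unadjusted p below 0.05.

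Skin exposed to HDM had less Bmp4 than baseline skin. In CTL mice its log2 fold change was -1.82 (SE 0.15), with an FDR of 0.0095 by edgeR, and it was the only 1 of the 9 tested genes called, where 3.58% of all genes were. Without baseline butyrate replicate 3, Bmp4 kept its value (-1.82, SE 0.11, FDR 0.001), and Wnt10b (-1.49, SE 0.28, FDR 0.0143) and Lef1 (-1.09, SE 0.21, FDR 0.0146) were called as lower as well, 3 of 9 where 12.5% of all genes were called. With all 8 libraries the fold changes of Wnt10b and Lef1 were the same size, but their SEs were 0.61 and 1.08 and their FDRs 0.249 and 0.584. The median log2 fold change was -1.13 over the 4 tested signals and -0.60 over the 5 transcription factors, against -0.02 over all tested genes. Both lesional CTL mice were below both baseline CTL mice in 8 of 9 tested genes, all but Foxn1, where 38.5% of all genes were lower without overlap.

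In butyrate-treated mice the log2 fold change of Bmp4 between lesional and baseline skin was -1.33 (SE 0.15, FDR 0.0571 by edgeR), again the only 1 of 9 called, where 0.35% of all genes were. When baseline butyrate replicate 3 was left out it was -1.23 (SE 0.13, FDR 0.0204), 1 of 9 beside 5.94% of all genes. Over both treatments, a comparison added after the data were seen, Bmp4 (-1.58, SE 0.10, FDR 0.0027) and Wnt10b (-1.84, SE 0.42, FDR 0.0648) were called by edgeR beside 5.22% of all genes. Without the library that stood apart they were at -1.53 (SE 0.09) and -1.25 (SE 0.21) and both called, beside 10.7%. Lef1 then had an FDR of 0.0129 but a log2 fold change of -0.81, under the fold threshold. All 4 lesional mice lay below all 4 baseline mice in Bmp4, Wnt10b and Lef1, 3 of 9 tested genes, where 9.31% of all genes did. The signs of Msx2, Hoxc13, Foxn1, Dlx3 and Fgf5 in butyrate-treated mice turned with the 1 library, from between -4.97 and -1.81 with it to between 0.37 and 0.76 without it, and DESeq2 with all 8 libraries called 7 of 9 as lower there, where it called 4.6% of all genes, and 1 without it, where it called 6.85%.

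The calls of Bmp4 within each treatment were lost in several fits that left out 1 mouse. In CTL mice its FDR by edgeR was between 0.142 and 0.202 when either baseline CTL mouse or either lesional CTL mouse was left out, with log2 fold changes of -1.87 to -1.78, and in butyrate-treated mice it was between 0.215 and 0.498 without any 1 of the CTL mice or of the lesional butyrate mice and 0.635 when only the 4 compared libraries were fitted. Over both treatments it was called without each of the 8 mice in turn, with an FDR of at most 0.0486. Wnt10b over both treatments was called without either baseline butyrate mouse, but without any of the other 6 mice its FDR was between 0.159 and 0.283, and limma-voom with all 8 libraries called Bmp4 alone of the 9, beside 5.2% of all genes.

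In HDM-exposed skin all 9 tested genes had a positive log2 fold change of butyrate against CTL, and none passed the test. The values were 1.15 for Hoxc13 (SE 1.21), 1.13 for Fgf5 (SE 1.82), 1.03 for Msx2 (SE 1.51), 0.98 for Dlx3 (SE 1.10), 0.62 for Wnt10b (SE 0.61), 0.54 for Sostdc1 (SE 0.20), 0.43 for Bmp4 (SE 0.15), 0.28 for Foxn1 (SE 0.84) and 0.09 for Lef1 (SE 1.08). The smallest FDR by edgeR was 0.934, for Bmp4, and 0% of all genes were called. Unadjusted, 2 of the 9 had a p below 0.05 by edgeR, beside 734 of all 15163 tested genes, and limma-voom and DESeq2 called 0 of the 9. In 8 of 9 genes, all but Lef1, both lesional butyrate mice were above both lesional CTL mice, where 22.4% of all genes were higher without overlap. The medians were 0.58 over the tested signals and 0.98 over the transcription factors, against -0.01 over all tested genes.

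Without baseline butyrate replicate 3, which is in neither of these groups but enters the shared spread, the same fold changes had smaller errors. Dlx3 was then at 0.98 (SE 0.20, FDR 0.105), Hoxc13 at 1.15 (SE 0.26, FDR 0.123) and Msx2 at 1.03 (SE 0.26, FDR 0.152) by edgeR, and 0 of 9 were called, where 1.22% of all genes were. DESeq2 without this library called Hoxc13, where it called 2.46% of all genes, limma-voom without it called 0 of the 9, and edgeR without baseline butyrate replicate 1 called Msx2, where 1.22% of all genes were called. Keratinocyte markers summed to 20587 and 18770 CPM in lesional butyrate skin against 14245 and 13317 CPM in lesional CTL skin. Bulge markers summed to 1561 and 1678 CPM against 844 and 1070 CPM, and 8 of 8 had a positive log2 fold change. Leukocyte markers summed to 926 and 1073 CPM against 1259 and 1306 CPM. Without baseline butyrate replicate 3 edgeR called the keratinocyte markers Krt10 (1.80), Krt1 (1.25) and Lor (1.54), the bulge marker Krt15 (1.03) and the sebaceous marker Awat2 (1.25) as higher on the log2 scale and the neutrophil receptor gene Csf3r (-1.84) as lower, and with all 8 libraries it called none of these 6. Their part in the differences was not tested.

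The effect of butyrate was not shown to differ between lesional and baseline skin for any of these genes. edgeR called 0 of 9 for this difference with all 8 libraries, beside 0% of all genes. Unadjusted, 1 of the 9 had a p below 0.05 by edgeR, beside 703 of all 15163 tested genes. limma-voom and DESeq2 also called 0 of the 9 with all 8 libraries. Without the library that stood apart, the signs of 7 genes turned. Dlx3, for example, went from -2.31 (SE 1.55) to 1.01 (SE 0.32), whereas Bmp4 was at 0.49 (SE 0.21) and 0.59 (SE 0.18).

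**Figure D4:**
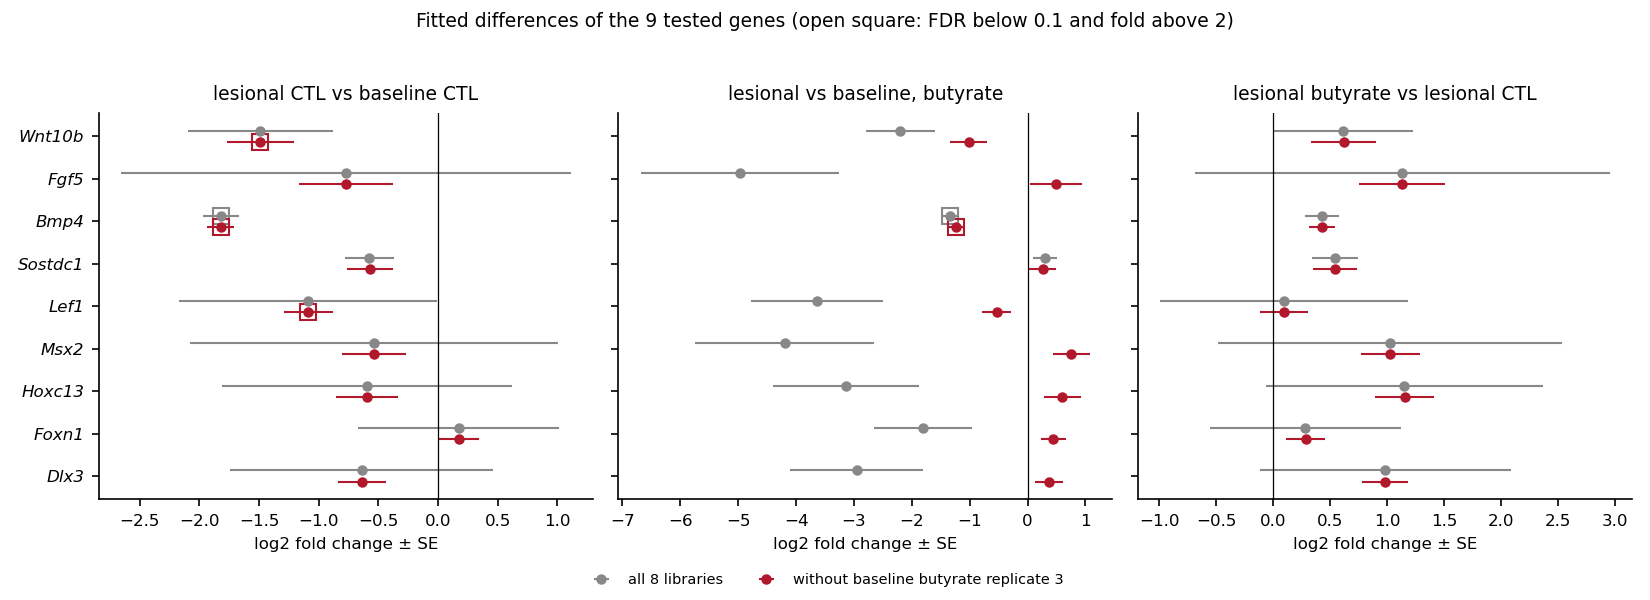
Log2 fold changes of the 9 tested genes by edgeR for 3 comparisons, with bars of 1 SE, from all 8 libraries (grey) and without baseline butyrate replicate 3 (red); open squares mark an FDR below 0.1 with a fold above 2, and each panel has its own scale. Bmp4 carries a square in both fits of both lesional against baseline comparisons, Wnt10b and Lef1 carry one only in the red fit of CTL mice, and no gene carries one for lesional butyrate against lesional CTL skin.

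Few other genes of these pathways were called between lesional and baseline CTL skin with all 8 libraries, where 3.58% of all genes were called, against 12.5% without baseline butyrate replicate 3, and nothing is read from these counts about the pathways. Of 29 other tested WNT genes 2 were called as lower against baseline CTL skin by edgeR with all 8 libraries and 6 without baseline butyrate replicate 3, and none as higher. Notum, a secreted inhibitor of WNT ligands, was at 6.37 and 16.2 CPM in baseline CTL and 1.28 and 1.43 CPM in lesional CTL skin (log2 fold change -3.06, SE 0.49, FDR 0.0445). Dkk3 was called as lower in the same fit, at -1.13 (SE 0.21, FDR 0.0594). Lgr5, a receptor of follicle stem cells that binds R-spondins, went from 39.5 and 38.6 CPM to 10.4 and 9.48 CPM, and was called without the library that stood apart (-1.97, SE 0.12, FDR 0.00085) and not with it (-1.97, SE 0.49, FDR 0.114). Rspo3, an R-spondin of the dermal papilla, was called without that library (-1.49, SE 0.42, FDR 0.0444). The general target Axin2 had an FDR of 0.0839 with all 8 libraries, but its log2 fold change of -0.71 was under the fold threshold.

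Hedgehog genes were called as lower in 0 of 13 cases with all 8 libraries by edgeR. Of these, 1 had an unadjusted p below 0.05, beside 2983 of all 15163 tested genes. Gli1 was at 21.6 and 22.9 CPM in baseline CTL and 11.9 and 9.16 CPM in lesional CTL skin. Its log2 fold change was -1.08 (SE 0.20) without baseline butyrate replicate 3. The receptor gene Ptch1 (-0.40, SE 0.60) did not pass the test in either fit. Of 21 other BMP genes, Id1, a direct BMP target, was called as higher (1.35, SE 0.29, FDR 0.0824) and Smad9, a BMP signal transducer, as lower (-1.93, SE 0.40, FDR 0.0734), with and without the library. Id1 was at 39.7 and 39.3 CPM in baseline CTL and 110.3 and 90.6 CPM in lesional CTL skin.

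Of 15 other FGF genes, the receptor Fgfr2 was called as lower in lesional CTL skin (-1.25, SE 0.19, FDR 0.0412), and 5 were without baseline butyrate replicate 3. Of 21 other follicle transcription factors, Lhx2, a stem cell factor of the bulge, was called as lower (-1.55, SE 0.34, FDR 0.0884), from 53.4 and 47.2 CPM to 15.4 and 18.8 CPM, and 4 were without that library. Each of the calls of Notum, Dkk3, Id1, Smad9, Fgfr2 and Lhx2 with all 8 libraries was lost without any 1 of the 6 mice outside the baseline butyrate group, with the highest FDR by edgeR at 0.600 for Lhx2, and held without either baseline butyrate mouse. In lesional butyrate against lesional CTL skin, 0 genes of any of these 5 pathway lists were called with all 8 libraries or without the 1 library, by edgeR, limma-voom or DESeq2. Unadjusted, with all 8 libraries by edgeR, 2 WNT, 2 FGF and 1 transcription factor gene had a p below 0.05, beside 734 of all 15163 tested genes.

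Other cell markers moved between lesional and baseline skin. Bulge markers share Lgr5 and Tcf7l1 with the WNT list above and Lhx2, Nfatc1 and Foxc1 with that of other follicle transcription factors. Dermal papilla markers share Rspo3 with the WNT list and Hhip with the hedgehog list. Bulge markers summed to 2298 to 2475 CPM in baseline libraries other than replicate 3 of the butyrate group and to 844 to 1678 CPM in lesional libraries. Of 8 tested, 1 was called as lower in CTL mice by edgeR with all 8 libraries, where 3.58% of all genes were called. Skeletal muscle markers summed to 38233 to 46744 CPM in the same baseline libraries and 13197 to 23922 CPM in lesional libraries, leukocyte markers to 639 to 891 CPM and 926 to 1306 CPM, and cell cycle genes to 438 to 468 CPM and 675 to 821 CPM. In CTL mice edgeR with all 8 libraries called 1 of 7 leukocyte markers as higher and 0 of 8 muscle markers as lower, beside the same 3.58%. In that fit 8 of 8 bulge and 8 of 8 muscle markers had a negative log2 fold change, with medians of -1.06 and -1.10. For leukocytes 7 of 7 were positive, with a median of 1.19. These medians were the same without that replicate, against -0.02 over all tested genes. Keratinocyte markers summed to 19164 and 18560 CPM in baseline CTL and 14245 and 13317 CPM in lesional CTL skin, but 4 of 7 had a positive log2 fold change and the median was 0.06. Without that replicate the log2 fold changes in CTL mice were -2.43 for Krt10, -1.15 for Krt1 and -2.41 for Lor. Krt14, in contrast, was at 2761 and 2802 CPM in baseline and 5904 and 4767 CPM in lesional CTL skin. Markers of the dermal papilla, where Bmp4 is known to be expressed, summed to 75.6 and 98.0 CPM and to 153 and 171 CPM. Of 8 tested, 4 were positive and 4 negative with a median of -0.19, and Vcan went from 41.2 and 55.3 to 102 and 125 CPM. Without that replicate the log2 fold changes in CTL mice were 3.42 for Inhba, 1.23 for Vcan and -1.49 for Rspo3. Hair shaft genes summed to 8.60 to 11.9 CPM in these baseline and 5.54 to 9.71 CPM in lesional libraries. Inner root sheath genes went the other way, with 7.70 to 12.36 CPM in these baseline and 13.04 to 16.14 CPM in lesional libraries. In CTL mice with all 8 libraries, 2 of 8 tested hair shaft genes were positive and 6 negative. Of 6 tested sheath genes, 4 were positive and 2 negative, and edgeR called 0 in either list. Log2 fold changes in CTL mice without that replicate were 3.28 for Krt84, -2.67 for Krt32, -2.57 for Krt31 and 1.56 for Krt27. No marker of bulge, muscle, leukocytes, keratinocytes, dermal papilla or cell cycle was at 0 in any library, and the part of these cells in the lower level of Bmp4 was not tested.

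**Figure D5:**
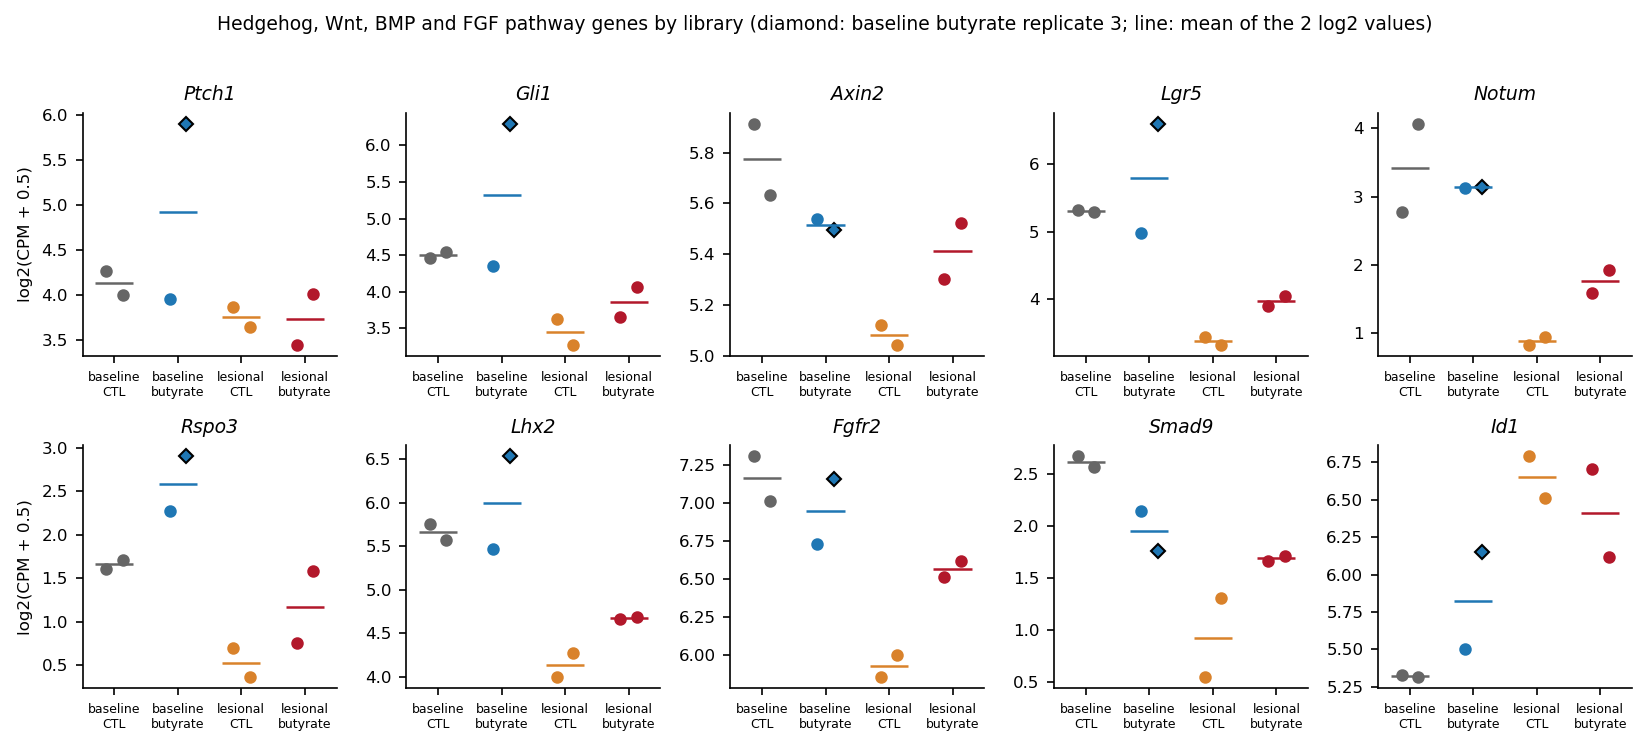
Level of 10 hedgehog, WNT, BMP, FGF and follicle stem cell genes in each library as log2(CPM + 0.5), drawn as in the plot of the 10 hair growth phase genes. The diamond of baseline butyrate replicate 3 is far above the other points for Ptch1, Gli1 and Lgr5 and within them for Axin2, and the lesional CTL points are the lowest for Lgr5, Notum and Lhx2.

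The genes most alike in pattern were found by the root mean square difference between centred log2(CPM + 0.5) values over the 8 libraries, among 14185 genes whose mean was 1 CPM or more. For Wnt10b this was Rhpn2 (0.172), followed by Gli1 (0.185), for Bmp4 the basement membrane collagen gene Col4a5 (0.115), and for Sostdc1 it was Zfp964 (0.0950). For Dlx3 it was Dlx2 (0.236), for Fgf5 Foxe1 (0.238), for Lef1 Ephb1 (0.210), for Hoxc13 the melanosome gene Gpnmb (0.292), for Foxn1 Tmeff1 (0.164), for Msx2 Fam211b (0.337) and for Shh Zfp618 (0.166). Col4a5 was at 31.3 and 27.1 CPM in baseline CTL, 26.0 and 35.7 CPM in baseline butyrate, 8.15 and 8.98 CPM in lesional CTL and 11.7 and 12.8 CPM in lesional butyrate skin, close to the order of Bmp4. Gpnmb was at 452 CPM in baseline butyrate replicate 3 and between 16.3 and 26.8 CPM elsewhere. Within the 10, Fgf5 and Msx2 were each other's nearest (0.153), as were Hoxc13 and Dlx3 (0.274), Wnt10b and Bmp4 (0.543) and Shh and Lef1 (0.363).

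Likeness over all 8 libraries was set mostly by the 1 library that stood apart. Over the other 7 libraries, among 14139 genes, the nearest gene changed for all 10, to Adamts14 for Bmp4 (0.0886), Diras2 for Wnt10b (0.0770), Krt28 for Hoxc13 (0.140) and Prr12 for Lef1 (0.0752). Wnt10b and Bmp4 remained each other's nearest among the 10 (0.267). With so few libraries these values are descriptions.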

How the data were processed

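Total RNA of skin was prepared with the Illumina TruSeq RNA kit. The authors aligned the reads with STAR (2.5.2) to GRCm38, used featureCounts for the counting per gene and deposited the raw counts of protein-coding genes, with no normalization. The deposited table is labelled as reverse-stranded counts, while whether the kit marks strand is not given in the sources used here. Groups were taken from the labels, where SCFA was read as sodium butyrate and vehicle as CTL.

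CPM values were calculated here from TMM-scaled library sizes. edgeR's quasi-likelihood test (edgeR 4.0.16, R 4.3.3, robust fit) was run on all 8 libraries over 15163 genes that passed filterByExpr (minimum count 10), with FDRs by Benjamini-Hochberg and a prior count of 0.125. SEs were derived from the F statistic. The fit has 4 residual degrees of freedom, and an exact two-sided permutation test of 2 mice against 2 cannot give a p below 0.333. Nothing in the labels says that mice came from separate cages or litters, so that p-values measure the spread between these samples only. limma-voom (limma 3.58.1), DESeq2 (1.42.0), other scalings, filters and thresholds, and fits without each library were alternatives. Scripts were tested on simulated counts. Floors and counts cover counting error only.

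The 10 genes and the lists of pathway genes and cell markers were chosen with earlier results of these data known. Named genes were the 10, the gene and the fellow member nearest in pattern to each, Ptch1, Gli1, Axin2, Krt35, Krt25 and Krt71, and, per list and comparison, at most the 3 genes past the threshold with the largest change. Krt14, Krt10, Krt1, Lor, Krt15, Awat2, Csf3r, Vcan, Dkk3, Gli1 as a neighbour of Wnt10b, and list genes named for their level in baseline butyrate replicate 3 were chosen after their values were seen. STAR, its version and the build are from the submitters' processing notes. Coordinates and exon lengths were from GENCODE vM21 on GRCm38 and promoter windows from RefSeq on GRCm38.p6.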

Additional observations from a re-analysis of the deposited data

Results flagged for a closer look

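Sostdc1 moved in opposite directions in baseline and lesional skin. Both butyrate-treated mice were below both CTL mice at baseline, where 15.9% of all tested genes were lower without overlap. They were above both in lesional skin, where 22.4% were higher without overlap. Likewise both lesional mice were below both baseline mice in the CTL group, beside 38.5% of all tested genes, and above both in the butyrate group, beside 15.7%. At baseline the nearest values were 58.3 CPM with butyrate and 62.1 CPM in CTL. The difference of the butyrate effect, lesional minus baseline, was 0.88 on the log2 scale (SE 0.29), with an FDR of 0.84 over all tested genes by edgeR's quasi-likelihood test. It therefore did not pass the threshold. Without baseline butyrate replicate 3 it was 0.83 (SE 0.31, FDR 0.538).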

How the results depend on the processing

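With each mouse left out in turn, edgeR called 0 to 191 genes and 0 to 1 of the hair growth phase genes for lesional butyrate against lesional CTL skin, 0 to 3777 and 0 to 8 for baseline butyrate against baseline CTL, 0 to 1936 and 0 to 3 for lesional against baseline skin in CTL mice, 0 to 2990 and 0 to 9 in butyrate-treated mice, 0 to 3275 and 0 to 8 for the difference of the butyrate effect, and 120 to 1847 and 1 to 9 for lesional against baseline skin over both treatments. The most genes were called each time without baseline butyrate replicate 1. With all 8 libraries edgeR called 0, 0, 543, 53, 0 and 791 genes in these comparisons and 0, 0, 1, 1, 0 and 2 of the hair growth phase genes.

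DESeq2 with all 8 libraries called 124, 58, 1093, 698 and 37 genes in the first 5 comparisons, and 3, 7 and 7 of the hair growth phase genes for baseline butyrate against CTL, for lesional against baseline skin with butyrate and over both treatments. When baseline butyrate replicate 3 was left out, an alternative added after the data were seen, it called 378, 3, 1767, 1052, 166 and 1539 genes, and 1 and 3 of the hair growth phase genes for lesional butyrate against lesional CTL and for lesional against baseline CTL. limma-voom called 1 gene for lesional butyrate against lesional CTL and 1 of the hair growth phase genes over both treatments. When that library was left out it called 216, 1925, 919 and 1677 genes in the comparisons of lesional skin with CTL and with baseline, and 3 and 2 of the hair growth phase genes in CTL and butyrate-treated mice against baseline. With only the compared libraries edgeR called 25 genes for butyrate in lesional skin, 1918 genes and 3 of the hair growth phase genes for lesional against baseline CTL, and 0 and 0 with butyrate. Library totals alone gave 83 genes with butyrate against baseline. An FDR below 0.05 gave 245, 17 and 465 genes for lesional against baseline skin in CTL, in butyrate-treated mice and over both, with 0 of the hair growth phase genes with butyrate and 1 over both. Without the fold threshold 1716 genes passed over both. The cause of these changes was not tested.

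Of 900 fold changes of single genes under alternatives, 814 kept their side of the threshold without turning, 48 moved past it, 18 lost it and 20 turned. A change of sign counted as a turn if the value moved by more than 1 SE of the main fit or either fit called the gene. Smaller changes of sign are among the 814. Lef1, for example, ran from -0.10 to 0.27 for lesional butyrate against lesional CTL skin over the fits without 1 mouse. All 20 turned without baseline butyrate replicate 3. Over the fits without 1 mouse, the log2 fold change of baseline butyrate against CTL ran from -0.14 to 6.31 for Fgf5, -0.46 to 3.54 for Lef1, -0.27 to 5.66 for Msx2, -0.050 to 4.63 for Hoxc13 and -0.027 to 4.22 for Dlx3. That of lesional against baseline skin with butyrate ran from -5.95 to 0.50 for Fgf5, -5.16 to 0.76 for Msx2, -4.07 to 0.60 for Hoxc13, -2.64 to 0.44 for Foxn1 and -3.88 to 0.37 for Dlx3. The difference of the butyrate effect ran from -1.34 to 0.47 for Wnt10b, -5.18 to 1.27 for Fgf5, -3.45 to 0.56 for Lef1, -4.63 to 1.3 for Msx2, -3.47 to 1.2 for Hoxc13, -2.81 to 0.27 for Foxn1 and -3.24 to 1.01 for Dlx3. Over both treatments lesional against baseline ran from -2.85 to 0.11 for Msx2, -2.34 to 0.0025 for Hoxc13 and -1.23 to 0.31 for Foxn1.

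A pseudocount of 2 in place of 0.5 lowered the median absolute log2 gap between mice over the hair growth phase genes in every group. The median went from 4.05 to 3.23 in baseline butyrate skin, that is from 16.6-fold to 9.40-fold. It went from 0.12 to 0.083 in baseline CTL, from 0.14 to 0.062 in lesional CTL and from 0.33 to 0.19 in lesional butyrate skin. In baseline butyrate skin Fgf5 went from 52.8-fold to 24.4-fold and Msx2 from 49.1-fold to 31.2-fold, so that Msx2 was then the widest. Scaling by library totals moved the median of all genes by at most 0.13 on the log2 scale. No paired analysis was possible because no pair of compared groups has more than 1 replicate number in common. Depth limits Shh, with 0 to 3 counts in 7 libraries, and 2 mice per group limit every comparison.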
